A study of Solanum lycopersicum with 12 samples.

Results

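Small RNAs at 55 tomato gene loci were read in every cotyledon library and were largely missing from callus. These loci were chosen by their own counts. Outside chromosome 0, which collects unplaced sequence, a locus was kept if it had at least 5 reads of 18 to 26 nt in each of the 3 cotyledon libraries and at most 9 such reads over the 9 callus libraries together. The deposited table held 34688 loci, of which 34110 lay outside chromosome 0 and 5107 met the cotyledon limit, so that 5052 loci with as many cotyledon reads did not meet the callus limit. Because callus and cotyledon reads made the choice, the fall in callus is described here and not tested. The loci carry identifiers only: the files do not pair them with gene names, and 0 of the 55 identifiers matched the reference gene table, so that no gene product is named.

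The callus groups were taken at days 12, 14 and 16 from cotyledon pieces kept on SIM medium, and the day 0 group was cotyledon, the seed leaf, cut 6 days after sowing from seedlings of Solanum lycopersicum. Each of the 4 groups had 3 libraries, made by ligating adapters to small RNAs of total RNA, with PCR and gel selection. The labels named no cultivar. They did not say whether the replicates were separate cultures, and the p-values below rest on library-to-library spread that may be technical. Gene loci held 480127 to 698312 reads per callus library and 456744 to 563528 per cotyledon library. On the second principal component, 3 callus libraries (day 12 replicate 3, day 14 replicate 1, day 16 replicate 3) and cotyledon replicate 1 lay away from the rest of their tissue. Counts of neighbours and the comparison of days are given with and without them.

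In plants, small RNAs are cut from double-stranded or hairpin RNA by Dicer-like enzymes, whose products differ in length. MicroRNAs and many secondary small interfering RNAs are 21 or 22 nt long and act mainly on mRNAs, whereas 24-nt small interfering RNAs guide DNA methylation, often at transposons and repeats. Reads spread over many lengths can also be fragments of longer RNAs. A read count at a locus says how many small RNAs were placed on that gene and is not the level of its mRNA.

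The 55 loci had a median of 6 reads over the 9 callus libraries and 30 reads over the 3 cotyledon libraries. Cotyledon totals ran from 18 to 2440 reads; 41 loci had under 50 and 5 had over 100. In callus, 1 locus had 0 reads, 11 had 1 to 3, 17 had 4 to 6 and 26 had 7 to 9. No locus had more than 7 reads in a single callus library, and none had reads in more than 6 of the 9. For 53 loci the lowest cotyledon count lay above the highest callus count. This separation follows from the rule, and 23% of the 6729 loci tested over the whole table fell in callus (edgeR's quasi-likelihood test, adjusted p under 0.05). The plot of reads by library shows the callus columns mostly empty or at 1 read.

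**Figure D1:**
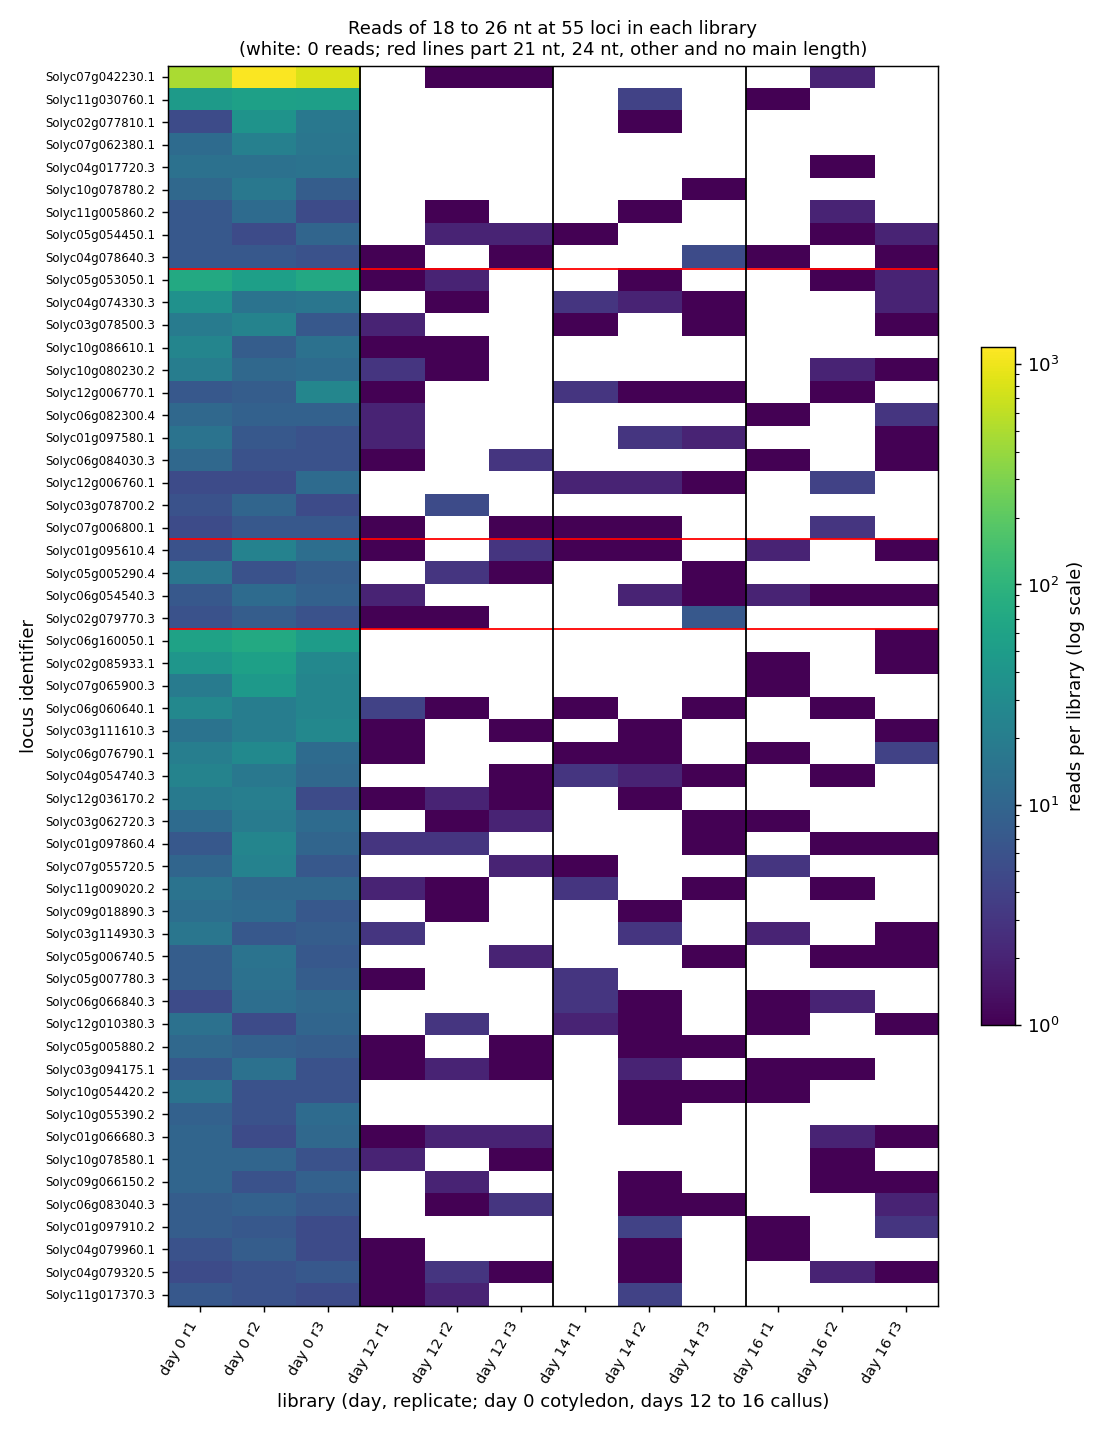
Reads of 18 to 26 nt at each of the 55 loci (vertical axis) in each of the 12 libraries (horizontal axis, by day and replicate), coloured on a log scale with 0 in white; loci are ordered by read-length class and then by cotyledon reads. Solyc07g042230.1 stands out in the 3 day 0 libraries with 484 to 1149 reads, and no callus cell exceeds 7 reads.

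Solyc07g042230.1 on chromosome 7 held 49.9% of the cotyledon reads of all 55 loci. It had 4 callus reads, 1 each in replicates 2 and 3 of day 12 and 2 in replicate 2 of day 16, against 484, 1149 and 807 reads in the cotyledon replicates. The lowest cotyledon library lay far above the highest callus library, while the cotyledon libraries themselves differed 2.31-fold in counts per 1000000 gene reads (CPM). Its level was 0.785 ± 1.34 CPM in callus (SD, n = 9) and 1563 ± 605 in cotyledon (SD, n = 3). The ratio of callus to cotyledon was 0.000514, with a 95% exact binomial interval of 0.000140 to 0.00132. That is a level 1946-fold lower in callus. Intervals here cover counting error of pooled reads only, and not the spread between libraries. They may also be too narrow for that, since PCR copies of a molecule cannot be told from separate molecules here.

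The cotyledon reads of this locus were almost of 1 length. Of 2440 reads, 2295 were 21 nt long, or 94.1% (95% exact interval 93.0 to 95.0%), and the share was 93.6, 93.6 and 94.9% in the 3 replicates. In the authors' deposited table, which held DESeq2 comparisons per read length, its 21-nt log2 fold change over day 0 was -12.18 at day 12, -11.93 at day 14 and -10.15 at day 16. These values describe the contrast that chose the locus.

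The next most abundant locus, Solyc05g053050.1 on chromosome 5, was of another kind. It had 7 callus reads, with at most 2 in any library, against 75, 55 and 72 cotyledon reads, a level 92.1-fold lower in callus. Its cotyledon reads were 79.2% of 24 nt, at 80.0, 80.0 and 77.8% in the 3 replicates. Solyc11g030760.1 had 4 reads in replicate 2 of day 14 and 1 in replicate 1 of day 16, against 47, 57 and 55 cotyledon reads, and 76.7% of its cotyledon reads were 21 nt long. These 2 loci differed by less between cotyledon replicates (1.62-fold and 1.41-fold in CPM) than the largest locus did.

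Solyc06g160050.1 and Solyc02g085933.1 were as clearly low in callus but had no main length. Solyc06g160050.1 had 1 callus read, in replicate 3 of day 16, against 59, 75 and 51 cotyledon reads. Its most frequent length, 21 nt, held 18.4% of these and its least frequent 5.41%. Solyc02g085933.1 had 2 callus reads, both at day 16, against 42, 57 and 27 cotyledon reads, with 18.3% at the most frequent length, 22 nt. Solyc07g065900.3 had 1 callus read against 19, 45 and 25 cotyledon reads. Its most frequent length was again 22 nt, with 21.3% of the reads.

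The other 4 of the 10 most abundant loci had between 62 and 72 cotyledon reads each. Solyc06g060640.1 had 8 callus reads against 27, 20 and 25 in cotyledon, and Solyc04g074330.3 had 9 against 36, 15 and 16. Solyc03g111610.3 had 4 callus reads against 15, 20 and 27 cotyledon reads, and Solyc06g076790.1 had 8 against 21, 29 and 12. Of these, only Solyc04g074330.3 had a main length, with 67.2% of its cotyledon reads at 24 nt. Its share was 75.0, 40.0 and 75.0% in the 3 replicates.

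Solyc07g062380.1, named after its values were seen, was the 1 locus with 0 callus reads. It had 12, 22 and 16 reads in cotyledon, of which 94.0% were 21 nt long. Counting 3 reads over the 9 callus libraries as the limit that 0 reads allow, its level was at least 53.2-fold lower in callus. Across the 43 loci with over 3 callus reads, the level was lower by 6.38-fold to 1946-fold, with a median of 15.4-fold.

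The fixed limit on callus reads selects among loci of unequal depth. The median ratio of callus to cotyledon levels, in CPM, was 0.0510 for the 55 loci and 0.778 for the other 5052, a difference the rule makes. The highest ratio among the 55 was 0.157, and 332 other loci lay at or under it. A ratio under 0.1 was found at 45 of the 55 loci and at 158 other loci, of which 113 had over 100 cotyledon reads. Strong falls at deeply read loci were therefore mostly left outside the rule, as the plot of callus against cotyledon reads shows.

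**Figure D2:**
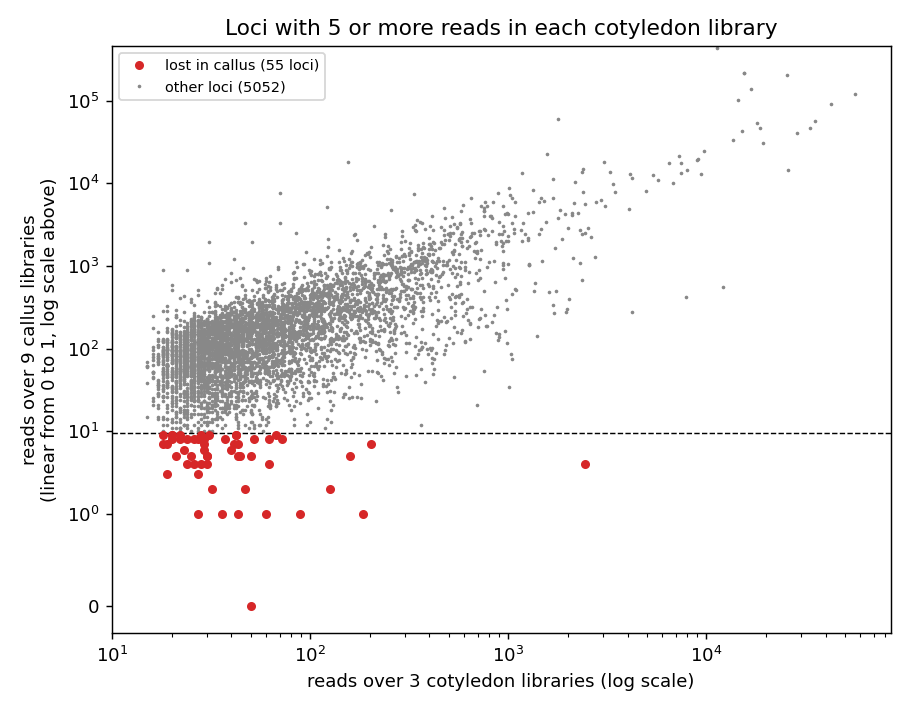
Reads over the 9 callus libraries (vertical axis, linear to 1 and log above) against reads over the 3 cotyledon libraries (horizontal axis, log) for the 5107 loci with 5 or more reads in each cotyledon library. The 55 loci (red) lie under the dashed limit and, apart from Solyc07g042230.1 with 2440 reads, have 202 cotyledon reads or fewer.

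At the edges of the rule, loci inside and outside had similar values. At the callus limit, 9 loci had exactly 9 reads in callus, led by Solyc04g074330.3, Solyc01g095610.4 and Solyc01g097860.4 with 67, 42 and 42 cotyledon reads. Just outside it, 8 loci had 10 callus reads, led by Solyc04g053020.2, Solyc06g075170.1 and Solyc10g081650.2 with 58, 32 and 31 cotyledon reads. At the cotyledon limit, 14 loci had 5 reads in their lowest library, such as Solyc02g077810.1, with 1 callus read against 5, 38 and 17 in cotyledon, Solyc12g036170.2, with 5 against 18, 21 and 5, and Solyc06g066840.3, with 7 against 5, 13 and 11. Just outside it, 22 loci had 4 reads in their lowest library. Among them Solyc05g024130.1 had 0 callus reads against 4, 15 and 15 in cotyledon, Solyc01g006330.5 had 6 against 17, 8 and 4, and Solyc09g083150.5 had 8 against 4, 15 and 7.

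Within cotyledon the loci varied between replicates. The 55 loci together held 2374, 3647 and 3345 CPM in the 3 libraries, but 1492, 1608 and 1579 without Solyc07g042230.1. The highest library was replicate 1 for 17 loci, replicate 2 for 23 and replicate 3 for 15. The ratio of the highest to the lowest replicate had a median of 1.85 and was over 3 for 6 loci. Solyc02g077810.1 varied most of the loci named here, 7.40-fold.

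Read lengths were not used in the choice, and loci without a main length were more frequent among the 55 than among the others. A locus was given a main length if its most frequent length held at least 30% of its cotyledon reads. Of the 55 loci, 30 (54.5%) had no main length, against 1527 of the other 5052 (30.2%). A main length of 24 nt was found at 12 loci (21.8%), against 2369 of the others (46.9%), and of 21 nt at 9 loci (16.4%), against 595 of the others (11.8%). The remaining 4 were Solyc01g095610.4 with 22 nt, Solyc05g005290.4 with 23 nt, Solyc06g054540.3 with 19 nt and Solyc02g079770.3 with 26 nt, at 31, 60, 32.1 and 30% of their reads. No test of these shares was made, since loci are not replicates.

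Few reads alone can blur or make a main length, so the classes were also read within bands of cotyledon depth. With 15 to 30 reads, 57.1% of 28 loci lacked a main length, against 34.0% of 1106 others. With 31 to 60 reads the shares were 47.1% of 17 loci and 36.1% of 1667 others, and with 61 to 250 reads 66.7% of 9 loci and 26.1% of 1646 others. The direction was the same in these 3 bands, as the bar plot of these shares shows. In the band of 31 to 60 reads, 8 of the 17 loci lacked a main length, so that a few loci make the difference. Over 250 reads there was only Solyc07g042230.1, which had a main length, where 18.8% of 633 others had none. That band is not in the plot.

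**Figure D3:**
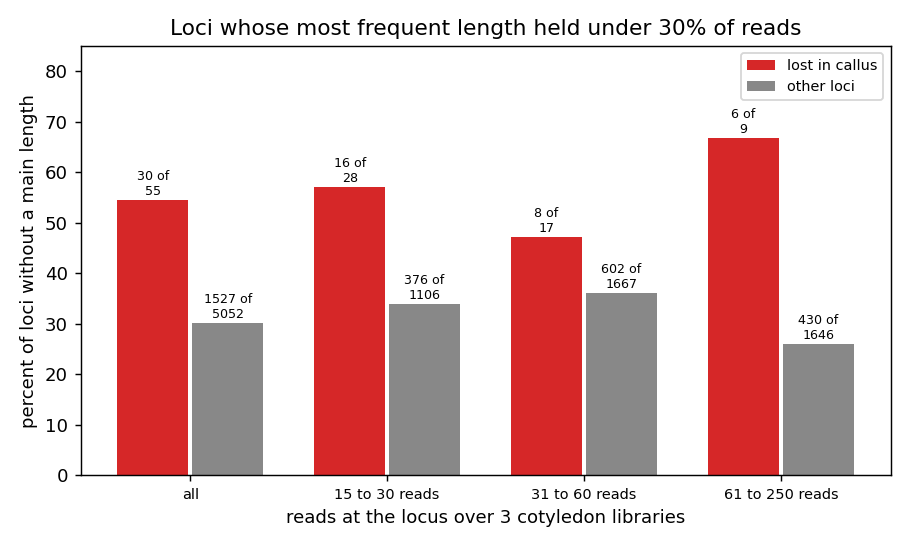
Percent of loci whose most frequent length held under 30% of their cotyledon reads (vertical axis), among the 55 loci (red) and the other loci (grey), over all loci and by cotyledon reads (horizontal axis). The numbers over the bars are counts of loci; in the deepest band shown, 6 of 9 stand against 430 of 1646.

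Reads of 18 to 20 and 25 to 26 nt were 16.4 to 21% of the cotyledon reads of the 55 loci in the 3 libraries, against 10.8 to 13.9% at the other loci. Solyc07g042230.1, with its 21-nt reads, weighs on this share, which was 31 to 37.6% at the 54 loci without it. At the 30 loci without a main length they were 47.8 to 54.2%, against 44.9 to 50.8% at the other loci without one, and these ranges overlapped. Over all gene loci, the share of these outer lengths was 10.4 to 17.0% in callus libraries and 14.5 to 18.2% in cotyledon libraries. The other loci without a main length together held 44570 to 83800 CPM in callus libraries and 94410 to 103500 in cotyledon libraries, and the groups did not overlap. These loci had to meet the cotyledon limit and were classed by their cotyledon reads. That choice favours cotyledon in such a sum. The part that it, a shift of such reads between tissues, or RNA quality has in the loss at the 30 loci was not tested.

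Among the 9 loci with a main length of 21 nt, the one with the most cotyledon reads after Solyc07g042230.1 and Solyc11g030760.1 was Solyc02g077810.1, with 66.7% of 60 reads at that length. Reads of 21 nt made up nearly all of Solyc07g042230.1, Solyc07g062380.1 and Solyc10g078780.2, which had 34 of 36 reads at that length (94.4%). The lowest share was that of Solyc04g017720.3, which had 32.6% of 43 reads at 21 nt, with 71.4, 21.4 and 6.67% in the 3 cotyledon replicates, so that its class rested on replicate 1.

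Among the 12 loci with a main length of 24 nt, Solyc05g053050.1, Solyc04g074330.3 and Solyc03g078500.3 had the most reads. Solyc03g078500.3 had 5 callus reads against 19, 24 and 7 in cotyledon, and 56.0% of its 50 cotyledon reads were 24 nt long. Together the 12 loci had 64.0% of 592 cotyledon reads at 24 nt and 16.2% at 23 nt. The heat map of lengths shows these blocks above the 30 loci whose reads spread over the 9 lengths.

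**Figure D4:**
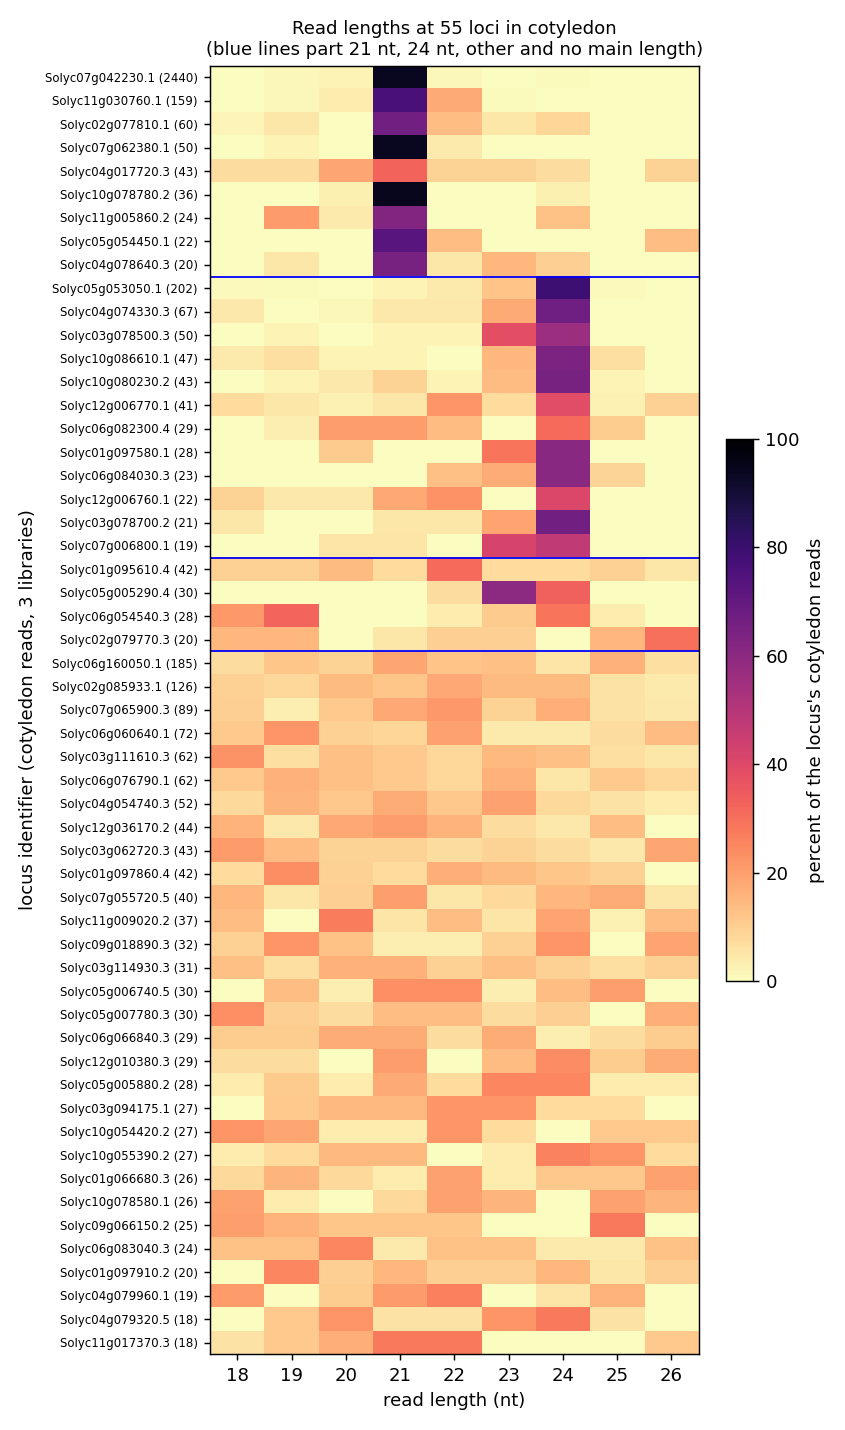
Share of each read length from 18 to 26 nt (horizontal axis) in the cotyledon reads of each of the 55 loci (vertical axis, total reads in brackets), with blue lines between loci of 21 nt, 24 nt, another and no main length. Solyc07g042230.1, Solyc07g062380.1 and Solyc10g078780.2 have 94.1, 94.0 and 94.4% of their reads at 21 nt, and the 30 loci at the bottom have under 30% at any length.

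The 311 reads left in callus were compared by length with the cotyledon reads. Length classes were set from the cotyledon reads. Within a class this raises or caps the cotyledon shares but not the callus shares, so that differences there partly follow from the classing. Without Solyc07g042230.1, 28.0% of 307 callus reads were 24 nt long (95% exact interval 23.1 to 33.4%), against 22.6% of 2446 cotyledon reads (20.9 to 24.3%), and 16.9% were 21 nt long (12.9 to 21.6%), against 21% (19.4 to 22.7%). The intervals overlapped at each of the 9 lengths. At the 12 loci of 24 nt, 60.3% of 78 callus reads were 24 nt long (95% exact interval 48.5 to 71.2%), against 64.0% of 592 cotyledon reads (60 to 67.9%), and these intervals overlapped. At the 9 loci of 21 nt, 45.5% of 33 callus reads were 21 nt long (28.1 to 63.7%), against 91.0% of 2854 cotyledon reads (89.8 to 92.0%). Here the intervals did not overlap. Solyc07g042230.1 gave 2440 of these cotyledon reads and 4 of the 33 callus reads. It held 2295 of the 2596 cotyledon reads of 21 nt in this class, and 2 of the 15 such callus reads. The gap was thus not confined to that locus, while the classing raises the cotyledon share at all of them. At the 30 loci without a main length, 24-nt reads were 19.6% of 168 callus reads (13.9 to 26.5%). In cotyledon they were 10.5% of 1320 reads there (8.86 to 12.2%). Reads of 25 nt were 1.19% of the callus reads (0.145 to 4.23%) and 9.62% of the cotyledon reads there (8.08 to 11.3%). Neither pair of pooled intervals overlapped, but by library the 24-nt share was 8.33 to 35.3% in callus and 6.15 to 14.4% in cotyledon, which did. The share of 25- and 26-nt reads together was 0 to 21.05% in callus libraries and 11.92 to 24.83% in cotyledon libraries, which overlapped too. Of these callus reads 2 were 25 nt and 10 were 26 nt long, so that this overlap does not bear on 25 nt alone. Shares of 25 nt by library were not computed.

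The rule capped the callus reads of a locus over all days together but did not fix their days. A locus with over 9 reads on a single day was left out, so the choice limits how far the days can differ. The p-values here describe only the reads left at the 55 loci and cannot show whether small RNAs returned on any day. The 55 loci together had 81.2, 63.9 and 51.1 CPM in the replicates of day 12, 60.2, 67.3 and 59.0 in those of day 14 and 42.5, 61.5 and 72.9 in those of day 16. The 3 days overlapped throughout. Their means were 65.4 ± 15.1, 62.2 ± 4.50 and 59.0 ± 15.4 (SD, n = 3 each), and an exact permutation test, two-sided, over all 1680 arrangements gave p = 0.839. Without the 3 callus libraries that lay apart, the exact permutation p was 0.4. Between pairs of days the exact p was 0.8 for day 14 less day 12, 0.7 for day 16 less day 12 and 0.9 for day 16 less day 14, where 3 libraries against 3 cannot go below 0.10. At each of the 3 days, 42 of the 55 loci had at least 1 read. Single libraries held most reads of some loci: Solyc02g079770.3 had 7 of its 9 callus reads in replicate 3 of day 14, and Solyc03g078700.2 had all 5 in replicate 2 of day 12.

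The loci were spread over the genome. Chromosome 6 held 8 of them, or 1.91% of its 418 loci with 5 or more reads in each cotyledon library, and chromosome 8 held 0 of 417. The other chromosomes held 2 to 6 each. Between successive members on a chromosome the median was 224.5 listed loci, and 5 of 44 pairs had under 30 between them. Only Solyc12g006760.1 and Solyc12g006770.1 were next to each other. Solyc12g006760.1 had 9 callus reads against 5, 5 and 12 in cotyledon, and Solyc12g006770.1 had 7 against 7, 8 and 26. Both were highest in replicate 3 of cotyledon, with 40.9 and 39.0% of their reads at 24 nt. These shares rest on few reads and varied by cotyledon replicate. They were 80.0, 0 and 41.7% for Solyc12g006760.1, and 14.3, 25.0 and 50.0% for Solyc12g006770.1.

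Next-listed loci mostly had too few reads to test. The 55 loci had 108 neighbours, the locus listed just before or after on the same chromosome that was not itself among the 55. Of these, 85 had under 15 cotyledon reads and 25 had 0. The 23 that passed the filter on low counts were tested in the fit over all 6729 loci (edgeR's quasi-likelihood test, Benjamini-Hochberg adjusted p under 0.05). In callus as a whole 5 fell, or 21.7%, against 23% of all loci, and 7 rose, against 17.6% of all loci. By day, 4 fell at day 12, where 19.2% of all loci fell, 4 at day 14, where 17.3% fell, and 3 at day 16, where 17.5% fell. The share of falling neighbours was thus near the share over all loci. Scaled to library totals, 5 neighbours fell and 4 rose, where 27.9% of all loci fell. Without the 3 callus libraries that lay apart 5 fell, and without these and cotyledon replicate 1 the number was 2.

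Solyc06g083030.4, listed before Solyc06g083040.3, fell most. It had 22 reads in replicate 3 of day 12 and 6 or fewer in the other callus libraries, against 121, 34 and 6 in cotyledon, so that the groups overlapped. Its log2 fold change was -3.83 (SE 0.62, edgeR adjusted p = 7.51e-05), -2.51 without cotyledon replicate 1 (edgeR adjusted p = 0.0105) and -4.32 without the 3 callus libraries that lay apart (edgeR adjusted p = 2.19e-06). Solyc06g076800.3, after Solyc06g076790.1, had 4 to 17 callus reads against 47, 21 and 33 in cotyledon, without overlap, and a log2 fold change of -2.22 (SE 0.33, edgeR adjusted p = 3.87e-05). Both had mainly 24-nt reads in cotyledon, at 85.7 and 74.3%.

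Solyc07g042220.2 is listed just before Solyc07g042230.1, the locus with the most reads. Solyc07g042220.2 had 0 to 13 reads per callus library against 31, 10 and 13 in cotyledon, so that the groups overlapped. It averaged 8.69 ± 7.74 CPM in callus (SD, n = 9) and 34.2 ± 20 in cotyledon (SD, n = 3), with a log2 fold change of -2.21 (SE 0.55, edgeR adjusted p = 0.00347). The call was lost without cotyledon replicate 1 (log2 fold change -1.67, edgeR adjusted p = 0.0832). Its cotyledon reads were 63.0% of 24 nt, unlike the 21-nt reads next to it, and Solyc07g042250.3 on the other side did not pass (log2 fold change -0.29, edgeR adjusted p = 0.496).

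Solyc01g095620.3 fell by 0.99 on the log2 scale (edgeR adjusted p = 0.00295). It had 19 to 49 callus reads against 58, 71 and 37 in cotyledon, so that the groups overlapped. Solyc05g006730.5, with 46 to 79 callus reads against 154, 55 and 82 in cotyledon, overlapped too. It had a log2 fold change of -0.71 (edgeR adjusted p = 0.0200). That call was lost without cotyledon replicate 1 (-0.30, edgeR adjusted p = 0.372) or replicate 3 (-0.73, edgeR adjusted p = 0.0520). Solyc01g066670.1, sixth in size, had a log2 fold change of -0.56 and did not pass (edgeR adjusted p = 0.262).

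Other neighbours rose while the locus beside them lost its reads. Solyc10g054440.3, after Solyc10g054420.2, averaged 388.9 ± 103 CPM in callus (SD, n = 9) and 32.8 ± 5.01 in cotyledon (SD, n = 3), a log2 fold change of 3.46 (SE 0.31, edgeR adjusted p = 7.25e-08). Solyc10g054420.2 itself had 3 callus reads against 15, 6 and 6 in cotyledon. Solyc03g114940.3 rose by 2.04 on the log2 scale (edgeR adjusted p = 0.0119), a call lost without cotyledon replicate 1 (edgeR adjusted p = 0.0736) or 2 (0.0635). Solyc01g097850.1 rose by 1.81 on that scale (edgeR adjusted p = 0.000275), beside Solyc01g097860.4 with 9 callus reads against 7, 25 and 10. Solyc11g009010.2, named after its values were seen, was by far the most abundant tested neighbour. It averaged 27450 ± 7818 CPM in callus (SD, n = 9) and 10750 ± 744 CPM in cotyledon (SD, n = 3), with 91.0% of its cotyledon reads at 21 nt, and rose by 1.22 on the log2 scale (edgeR adjusted p = 0.000133). The locus listed after it, Solyc11g009020.2, had 8 callus reads against 15, 11 and 11 in cotyledon. The plot of neighbours shows both directions.

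**Figure D5:**
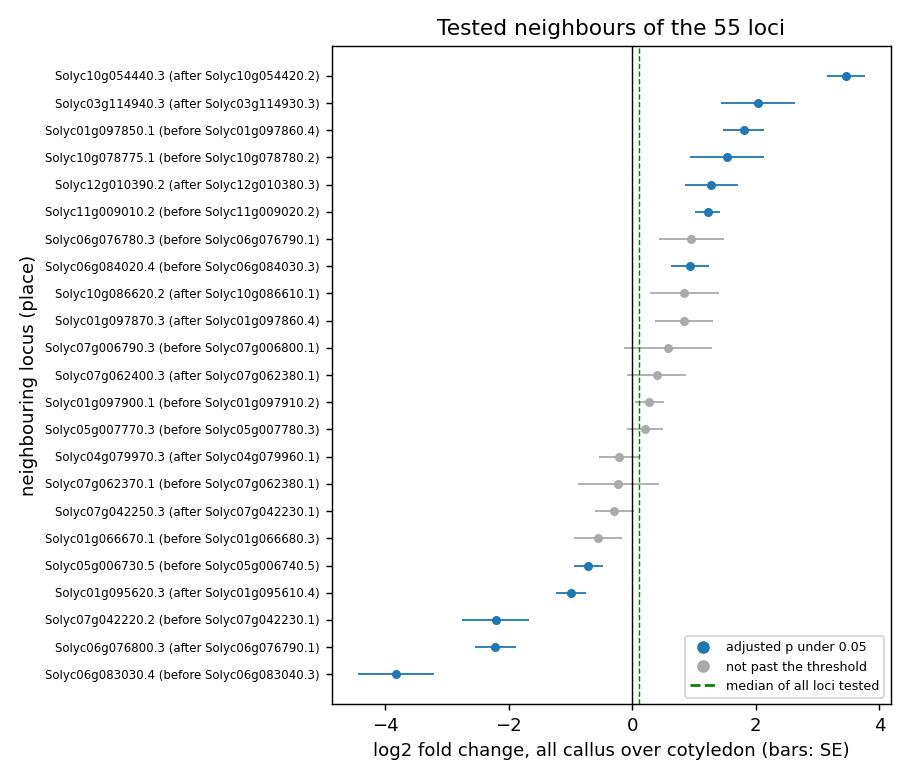
Log2 fold change of all callus over cotyledon (horizontal axis, points with SE bars) for the 23 tested neighbours (vertical axis), in blue where the edgeR adjusted p was under 0.05; the dashed line is the median of all loci tested, 0.10. Values run from -3.83 at Solyc06g083030.4 to 3.46 at Solyc10g054440.3, with 5 falls and 7 rises past the threshold.

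In wider windows the share that fell and the share that rose were both larger than over all loci. Within 2 listed loci on each side, 13 of 45 tested loci fell (28.9%) and 14 rose. Around the other 5052 loci, 845 of 3530 fell (23.9%) and 595 rose. Within 5 on each side, 39 of 117 fell (33.3%) and 29 rose, against 1166 of 5099 (22.9%) and 884. With 1 library left out at a time, the share that fell within 5 was 26.3 to 32.8%, against 17.4 to 22.5% of all loci. It was 32.1% without the 3 callus libraries that lay apart, against 23.6% of all loci, and 26% without these and cotyledon replicate 1, against 19.5%. The 39 were spread over windows of 27 of the 55 loci, with at most 3 beside any of them, at Solyc02g085933.1 and Solyc06g076790.1. These counts were not tested.

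Loci with similar sequences can share reads, and the sources used here do not give the counting rule for reads with several matches. Cotyledon counts were therefore compared by length and library between each of the 55 loci and every other locus, and the loci found this way were chosen after their values were seen. No locus had the same counts as a member. The closest was Solyc03g094177.1, next to Solyc03g094175.1, which differed from it by 7.41% of its reads. It had 13 callus reads and 29 cotyledon reads, where Solyc03g094175.1 had 8 and 27. Whether the pair shares reads was not tested.

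For Solyc05g053050.1 the closest locus lay on chromosome 9. Solyc09g092763.1 had 73, 52 and 64 cotyledon reads, 80.4% of them at 24 nt, close to those of Solyc05g053050.1 at each length and library (a difference of 15.3% of reads). Its callus reads were 68 to 114 per library, 795 in all, against 7 at Solyc05g053050.1. Likewise Solyc11g043030.1, 23.3% from Solyc11g030760.1 in cotyledon, had 7 to 42 callus reads per library, against 5 in all, and Solyc12g100020.1, 24% from Solyc07g062380.1, had 39 callus reads against 0. A locus outside the 55 that meets the cotyledon limit has 10 or more callus reads by the rule, so that a higher callus count at these loci is no finding.

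The fit over all loci and the authors' deposited table hold the contrast that chose the 55, so that their calls describe the choice. In the edgeR fit 16 of the 55 passed the filter on low counts, and the 39 others did not. All 16 fell, where 23% of all loci did. The authors' deposited table listed 30 of the 55. At day 12, 21 had an adjusted p at some read length and 9 were lower with an adjusted p under 0.05, against 8.9% of the loci listed with one. At day 14 these were 19 and 10, against 9.61%, and at day 16 they were 17 and 11, against 10.4%.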

How the data were processed

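The authors deposited raw counts of reads per gene locus for each of 9 read lengths in each library, 108 columns in all, per the file headers. A second table held log2 fold changes and adjusted p-values from the authors' DESeq2 comparisons per length, as the authors deposited them. Another table, of TPM values, served to recover library totals: with 1 constant per library, each of its 216 deposited values lay within 0.05 reads of a whole number, with totals of 2769024 to 4799134 reads, whose definition the sources do not state. The submitters' processing notes name fastp, Bowtie and DESeq2, while versions, genome build, strand setting and the treatment of reads with several matches are not given in the sources used here. Columns of other samples numbered 0.

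Counts were summed over 18 to 26 nt. The loci, the rule and the alternatives were chosen with earlier results of these data known. Neighbours were tested with edgeR 4.0.16 in R 4.3.3: TMM scaling, filterByExpr by group, quasi-likelihood F test over the 4 groups, the mean of the 3 callus groups less cotyledon or each day less cotyledon, and Benjamini-Hochberg adjustment over all 6729 loci tested. The SE was the change over the square root of F. The edgeR step was tested on simulated counts with known changes. Reads by day were compared with exact permutation tests (scipy 1.17.1). Read shares have exact Clopper-Pearson 95% intervals, and 0 reads were given a limit of 3 counts over a group. Figures were drawn with matplotlib 3.10.9.

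Loci are named by this rule: the 10 with the most CPM in cotyledon, the 3 with the most reads of each length class, members at consecutive identifiers, the 5 with the most callus reads (9 tie at the limit), up to 3 on each side of each limit, and of tested neighbours the 6 with the largest fall and 3 with the largest rise. Other loci named in the text were chosen after their values were seen. Order by identifier stands for position, since no coordinates were used.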

Additional observations from a re-analysis of the deposited data

How the results depend on the processing

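The number of loci follows the limits. It was 135 with at least 3 and 16 with at least 10 reads in each cotyledon library, and 1, 12 or 238 with at most 0, 3 or 20 callus reads. Leaving out 1 library with the limits kept gave 63 to 98 loci, 87 without cotyledon replicate 1 and 98 without replicate 3. Without the 3 callus libraries that lay apart, a choice made after seeing the data, it was 131, and 186 when cotyledon replicate 1 was also left out. Fewer libraries make the limits easier to meet, and all 55 loci remained in each of these sets. Counts scaled to the median library kept 45 loci. With 20 to 24 nt only there were 61, of which 33 were among the 55. Of the neighbours, 8 fell without a filter on low counts (101 tested), and 13 and 39 of the loci in the wider windows. With 1 library left out, 3 to 5 neighbours fell. Without cotyledon replicate 1 they were 3 of 25 (12.0%, against 17.4% of all loci). Without the 4 libraries that lay apart they were 2 of 24 (8.33%, against 19.5%). DESeq2 and DESeq2's size factors each gave 5 of 23 (21.7%), against 22.4 and 23.5% of all loci. The log2 change of Solyc07g062370.1, which did not pass, was -0.23. It ranged from -0.45 to 0.01 with 1 library left out, and was 0.23 without the 3 callus libraries and 0.35 without the 4 libraries that lay apart.

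With replicate number as a replicate block, 5 neighbours (21.7% of those tested) and 1500 loci (22.3%) fell. The labels did not say whether libraries with the same number are paired. Of 18 pairs with the same number, 4 correlated above 0.1 (-0.263 to 0.195 over the 18), which cannot exclude a pairing. Scaled to library totals, 5 neighbours fell and 4 rose, the median log2 change of all loci was -0.16 in place of 0.10, and 1880 loci fell and 791 rose, against 1546 and 1182. The length classes kept within 1.5 times under every alternative run: loci with no main length numbered 22 to 26 with 1 cotyledon library left out and 38 at a limit of 50%. Reads by day, which the rule caps at each locus, gave p = 0.393 to 0.893 over the alternatives (exact permutation test). Most loci have under 50 cotyledon reads, which limits each length share.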

Other observations

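Solyc07g062370.1, listed just before Solyc07g062380.1 and chosen after its values were seen, had 4 reads in replicate 3 of day 12 and 2 in replicate 1 of day 14, both libraries that lay apart on the second principal component, against 115 to 213 reads in the other 7 callus libraries and 165, 120 and 104 in cotyledon. Replicate 3 of day 16, which also lay apart, had 128. Over all callus its log2 fold change was -0.23 (edgeR adjusted p = 0.808), with an SE of 0.66. Without the 3 callus libraries that lay apart it was 0.23 (edgeR adjusted p = 0.444), so that its sign rested on them, and neither value passed. Of its cotyledon reads 61.4% were 23 nt long.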
